A study of Mus musculus with 22 samples.

Results

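CHD4 sites free of BRG1 are places in the mouse fibroblast genome where the chromatin remodeller CHD4 was detected and the remodeller BRG1 was not. They were chosen from measured regions: each is a merged CHD4 region of wildtype (WT) cells sonicated for 20 cycles that shared at least 1 base with a CHD4 region at 16 cycles, in WT or in cells without Lap2alpha (KO), and with no region of the 4 BRG1 lists. Of 109769 merged WT CHD4 regions at 20 cycles, 55345 were reproduced at 16 cycles in one genotype or the other, and 3455 of these, 6.24%, were free of BRG1. The other 51890 shared bases with at least 1 BRG1 list and are called CHD4 sites with BRG1.

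The cells were mouse dermal fibroblasts, labelled WT or Lap2alpha KO, grown in DMEM with fetal calf serum and given no other treatment in the labels. They were fixed with both DSG and formaldehyde, and sheared chromatin was precipitated with antibodies to BRG1, CHD4 or lamin A/C (3A6 or E1) in both genotypes, and to Lap2alpha (1H11) in WT cells. There was 1 library for each genotype, antibody and sonication length, so 18 of the 22 samples gave a region list, and the other samples, labelled as input, were not analysed here. The labels name neither the number of animals or clones behind each genotype nor the deleted part of the gene. Merged lists ran from 7283 regions for KO CHD4 at 20 cycles to 233769 for KO E1 at 20 cycles. The authors' lists hold positions and no read counts, so depth is unknown and lists of unequal length are not amounts of protein. As a check of the labelled cell type, 9 of 9 fibroblast marker genes had a WT CHD4 region at 20 cycles within 1 kb of a gene end. The numbers were 1 of 4 endothelial, 1 of 4 keratinocyte and 2 of 3 leukocyte genes. With WT BRG1 at 20 cycles they were 9, 2, 1 and 3 in the same order. The share over all genes was not counted for these lists, and 42.9% of genes had a CHD4 site with BRG1 at an end. With so few genes the check is weak. A list cannot tell fewer cells with a protein at a site from less of it in each cell.

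CHD4 is the ATPase of the nucleosome remodelling and deacetylase complex NuRD, which joins remodelling to histone deacetylation, and it also works with ADNP and HP1 in the ChAHP complex. BRG1 is an ATPase of SWI/SNF complexes, which open chromatin at enhancers and promoters, where both remodellers often sit. Lamin A/C forms part of the lamina under the nuclear envelope and also exists in the nuclear interior, where Lap2alpha, a LEM-domain protein without a membrane anchor, binds it.

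Very few of these sites lay on promoters. The sequences of 6 of those that did are shown so that the kind of promoter can be seen. RefSeq windows of GRCm38.p6, 250 bases before to 50 after a start site, were found for 17492 of 21887 protein-coding genes. A free site shared bases with 34 windows of 32 genes, at 29 sites. The windows below were chosen after their values were seen, from the 9 with at least 224 of their 300 bases inside the site. The other 3 were those of Zfp318 (49 CpG, the most of the 9), Ppp1r14a (25) and Zfp503 (19), and they lack the letters GGAATG that 4 of the 6 shown hold. Zfp384 encodes a zinc finger transcription factor, Ndufs7 a subunit of respiratory complex I, Hdac7 a class IIa histone deacetylase, Cdsn the keratinocyte adhesion protein corneodesmosin, and Tsc22d3 the glucocorticoid-induced protein GILZ. Proca1 is given by name only. Each window is written 5′ to 3′ on the strand of its gene, and capitals mark the letters GGAATG (TEAD) and ACCGGAAG (ETS), or their reverse complements.
Zfp384, chr6:125009419-125009718 (plus strand): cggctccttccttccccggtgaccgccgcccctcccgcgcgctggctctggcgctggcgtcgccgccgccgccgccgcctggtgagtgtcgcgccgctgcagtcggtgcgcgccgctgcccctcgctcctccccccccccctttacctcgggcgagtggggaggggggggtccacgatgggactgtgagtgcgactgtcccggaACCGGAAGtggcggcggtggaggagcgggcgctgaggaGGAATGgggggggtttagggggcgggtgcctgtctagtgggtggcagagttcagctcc
Ndufs7, chr10:80249199-80249498 (plus strand): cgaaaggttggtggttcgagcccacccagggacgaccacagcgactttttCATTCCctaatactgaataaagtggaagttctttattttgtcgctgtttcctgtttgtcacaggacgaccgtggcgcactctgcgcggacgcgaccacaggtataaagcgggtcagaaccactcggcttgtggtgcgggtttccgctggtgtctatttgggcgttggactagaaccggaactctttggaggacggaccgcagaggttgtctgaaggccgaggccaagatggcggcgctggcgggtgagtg
Proca1, chr11:78193142-78193441 (plus strand): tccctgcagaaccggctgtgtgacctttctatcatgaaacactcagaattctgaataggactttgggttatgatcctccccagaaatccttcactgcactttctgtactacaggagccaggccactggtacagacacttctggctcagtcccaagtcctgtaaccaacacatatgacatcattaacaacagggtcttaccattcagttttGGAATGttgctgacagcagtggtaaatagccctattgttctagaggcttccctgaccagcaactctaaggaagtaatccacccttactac
Hdac7, chr15:97844453-97844752 (minus strand): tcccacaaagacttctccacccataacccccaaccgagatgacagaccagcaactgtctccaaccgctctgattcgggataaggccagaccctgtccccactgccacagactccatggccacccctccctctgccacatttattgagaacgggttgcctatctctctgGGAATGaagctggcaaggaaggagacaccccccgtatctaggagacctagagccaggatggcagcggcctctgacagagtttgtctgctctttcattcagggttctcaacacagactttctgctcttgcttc
Cdsn, chr17:35542851-35543150 (plus strand): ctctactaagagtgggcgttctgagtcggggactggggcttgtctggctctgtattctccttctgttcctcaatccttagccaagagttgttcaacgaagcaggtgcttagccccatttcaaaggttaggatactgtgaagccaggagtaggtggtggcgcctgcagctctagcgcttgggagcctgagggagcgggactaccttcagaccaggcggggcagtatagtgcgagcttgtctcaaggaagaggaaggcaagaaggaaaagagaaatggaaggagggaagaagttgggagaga
Tsc22d3, chrX:140600473-140600772 (minus strand): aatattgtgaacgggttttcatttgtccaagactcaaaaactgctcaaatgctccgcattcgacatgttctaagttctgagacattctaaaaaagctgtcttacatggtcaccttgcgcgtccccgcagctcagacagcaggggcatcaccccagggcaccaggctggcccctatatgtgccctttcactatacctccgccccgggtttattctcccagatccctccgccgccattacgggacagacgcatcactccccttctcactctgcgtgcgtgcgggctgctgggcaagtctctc

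These 6 windows differed widely in base composition. The second Zfp384 window lay wholly inside a site of 470 bp and held 34 CpG, with 74.3% G and C. The Ndufs7 window, wholly inside a site of 610 bp, held 24 CpG. By contrast, the Proca1 window held 1 CpG, the Hdac7 window 6, the Cdsn window 8 and the Tsc22d3 window 15. Over the 34 windows on free sites the median was 17.5 CpG, between the median of 22 for the 6476 windows on sites with BRG1 and that of 13 for all 21263 windows. All 6 sites came from the KO list at 16 cycles and not from the WT list, and none shared bases with a lamin A/C or Lap2alpha region. Of all free sites, 70.8% were in the KO list alone and 71.5% met neither lamin A/C nor Lap2alpha. The counts for 6 sites are near these shares.

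Of 15 motifs searched on both strands, the letters GGAATG, named for TEAD factors that bind with the coactivator YAP, were in 10 of the 34 windows on free sites, 29.4%. They were in 12.0% of windows on sites with BRG1 and in 13.6% of all windows. No other motif searched contains these letters. Whole windows were searched for every motif, and a window can reach beyond its site. In the Hapln2, Rtn2, Pdgfc, Pabpc1l, Ubxn6 and Hdgfl2 windows the letters GGAATG, or their reverse complement, lay outside the site. The Hapln2 and Rtn2 windows had only 20 bases each inside it. The GGAATG motif was singled out after its count was seen, and the Ubxn6 and Hdgfl2 windows among the 10 overlap and start from opposite strands. The letters TGANTCA, named for AP-1, were in 0 of the 34 windows, 5.68% of those on sites with BRG1 and 6.99% of all. CAGCTG, an E-box, was in 1 of 34, against 14.5% and 15.6%. With 34 windows these are counts of letters and no more.

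The free sites were narrow, with a median width of 294 bp (quartiles 206 and 422) against 596 bp (quartiles 348 and 972) at sites with BRG1, and they covered 1.17 Mb in all. Most were tied to one list: 2445, or 70.8%, were reproduced in the KO list at 16 cycles and not in the WT list, 518 in the WT list alone and 492 in both. Among sites with BRG1, 46.8% were in both 16-cycle lists and 45.2% in the KO list alone. The KO list at 16 cycles held 88788 regions and the WT list 49441. Support is part of the rule, and a wider site can meet more BRG1 regions, so both are given as description.

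Free of BRG1 did not mean far from it. The median gap to the nearest region of any BRG1 list was 1747 bp (quartiles 804 and 3463). For 1044 sites, 30.2%, it was under 1 kb, for 2927 sites, 84.7%, under 5 kb, and for 47 sites 20 kb or more. Within 100 kb centred on a free site, BRG1 regions covered between 3.52% (WT at 16 cycles) and 8.80% (WT at 20 cycles) of the bases, in each BRG1 list more than 2 times the share of the genome, which was between 1.64% and 3.74%. Just inside the rule, 90 sites had a BRG1 region less than 50 bp away and a median width of 289 bp. Just outside it, 849 sites shared at most 50 bp with BRG1, and their median width was 32 bp. A site of 50 bp or less counts among these even where it lies wholly inside a BRG1 region. They are thus not all sites that barely touch one.

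The free sites lay in gene-rich parts of the genome. Of them, 1959, or 56.7% (95% Wilson interval 55.0 to 58.3), were in 1-Mb bins with 11 or more protein-coding genes (26.1% of the span). Among sites with BRG1 it was 44.4% (43.9 to 44.8). Gene-poor bins, with at most 2 genes and 33.0% of the span, held 7.50% (6.66 to 8.42) of free sites and 12.0% (11.7 to 12.3) of sites with BRG1. Wilson intervals cover counting error alone, and neighbouring sites are not independent. The median free site had 13 genes in its bin and the median site with BRG1 had 9.

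The gene-rich share was higher at free sites on 19 of 20 chromosomes. The exception was chromosome X, with 29.8% against 30.2%. In bins without a gene there were 0.140 free sites per Mb, rising class by class to 0.895 in bins with 3 to 5 genes, 2.34 with 11 to 20 and 3.75 with 21 or more. As a share of all reproduced CHD4 sites, free sites went from 4.10% in bins without a gene and 3.98% in bins with 1 or 2, to 8.55% in bins with 21 or more.

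**Figure D1:**
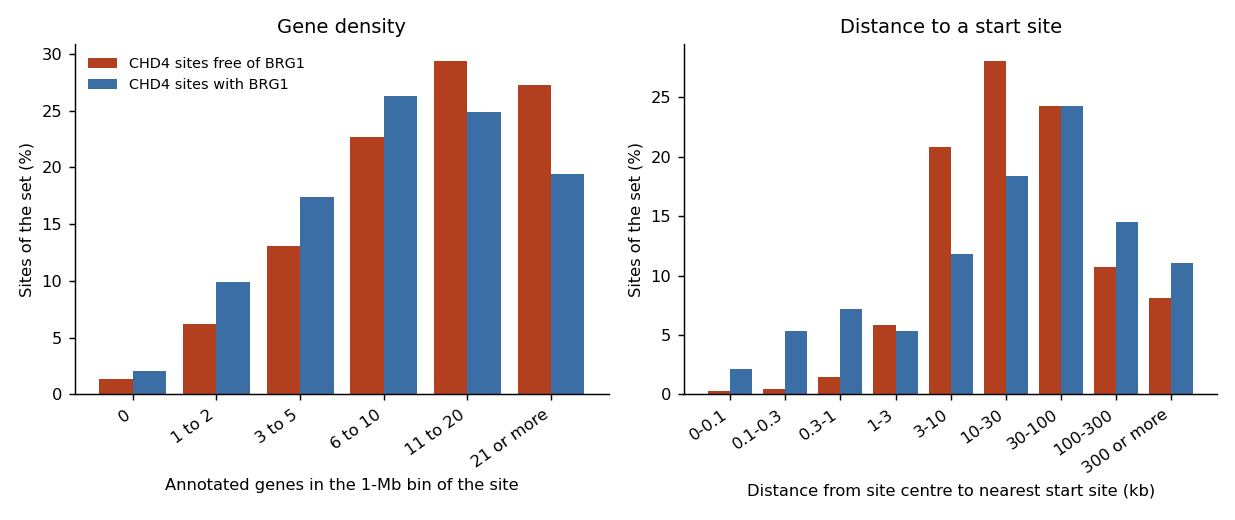
Percent of CHD4 sites free of BRG1 (red) and with BRG1 (blue) by the number of protein-coding genes in the 1-Mb bin (left) and by distance from the site centre to the nearest RefSeq start site in kb (right). Free sites had 27.3% in bins with 21 or more genes and 28.1% at 10 to 30 kb from a start site, against 19.4% and 18.4% of sites with BRG1.

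The preference for gene-rich bins differed with the list that supported the site. It was 62.9% (61.0 to 64.8) for sites supported by the KO list alone at 16 cycles and 53.7% (49.2 to 58.0) for those in both lists. For the 518 sites supported by the WT list alone it was 30.1% (26.3 to 34.2), and 22.2% of these lay in gene-poor bins.

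The chromosomes also differed in how many of their CHD4 sites were free. The share was lowest on chromosome 18 with 3.15% (2.40 to 4.13) and chromosome 1 with 3.89% (3.25 to 4.65). It was highest on chromosome X with 9.63% (8.17 to 11.3), chromosome 5 with 9.22% (8.31 to 10.2) and chromosome 19 with 8.36% (7.20 to 9.68). Chromosome X stood apart in another way: 35.1% of its 131 free sites were supported by the KO list alone at 16 cycles, against 60.6% to 82.0% on the other chromosomes.

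**Figure D2:**
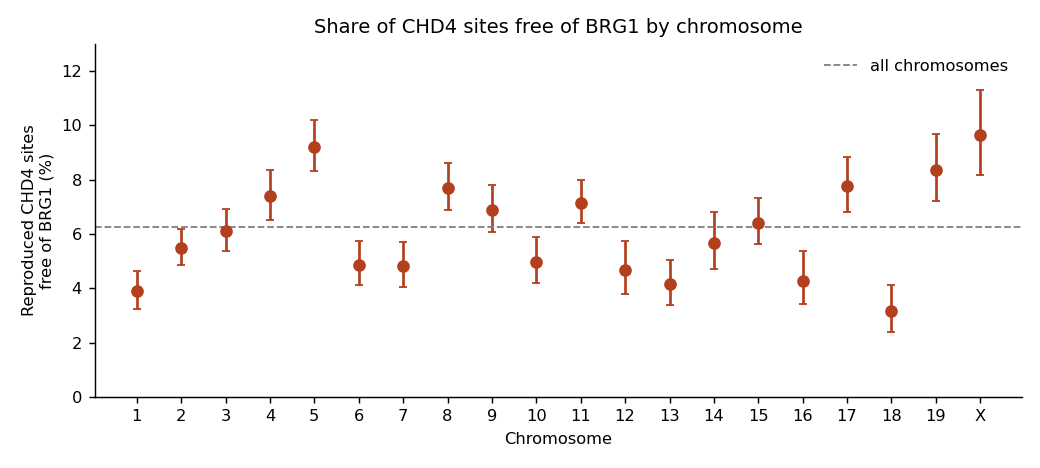
Percent of reproduced CHD4 sites that were free of BRG1 on each chromosome; points are shares, bars 95% Wilson intervals, and the dashed line is the genome-wide share of 6.24%. Chromosomes 18 and 1 are low, and X, 5 and 19 are high.

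The free sites were seldom at gene starts. Within 1 kb of either end of a gene lay 258 of them, 7.47% (6.64 to 8.39), against 19.2% (18.9 to 19.5) of sites with BRG1, and the share was lower on 20 of 20 chromosomes. With strand from the promoter table (sites off chromosome 18), 2.67% (2.18 to 3.27) of free sites and 16.0% (15.7 to 16.4) of sites with BRG1 were within 1 kb of a start site. On the promoter windows themselves the shares were 0.852% and 10.9%. The scarcity was not particular to reproduced sites. Another 28178 WT CHD4 regions at 20 cycles had neither BRG1 nor a CHD4 region at 16 cycles. Of these, 6.76% were within 1 kb of a gene end, 2.96% within 1 kb of a start site and 0.726% on a promoter window.

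The 3′ ends of genes showed the opposite order. Within 1 kb of a 3′ end and of no start site lay 134 free sites, 3.94% (3.33 to 4.64), against 1.79% (1.68 to 1.91) of sites with BRG1. In the 5 kb downstream of a 3′ end the shares were 11.4% (10.3 to 12.5) and 7.17% (6.94 to 7.39). For CHD4 regions without BRG1 that were not reproduced at 16 cycles, these 2 measures gave 2.93% and 7.19%. Among sites of like width (the middle 50% of free-site widths in both sets), 3.04% (2.32 to 3.96) and 1.81% (1.59 to 2.06) were near a 3′ end and no start site.

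Gene bodies away from the ends held 49.4% (47.7 to 51.0) of free sites and 38.1% (37.7 to 38.6) of sites with BRG1. They held 44.9% of the CHD4 regions without BRG1 that were not reproduced at 16 cycles. The centres of free sites gathered at middle distances from start sites. At 3 to 10 kb lay 20.8% of free sites against 11.8%, and at 10 to 30 kb 28.1% against 18.4%, while beyond 100 kb they were fewer. Exons and introns were not distinguished, since the annotation used gives gene spans.

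Classes of free sites by distance to BRG1 were alike in gene density and differed in position in genes. The distance is to the BRG1 lists that the rule used, and 16.0% of sites with BRG1 were themselves near a start site. The classes are therefore given as description. Of sites with BRG1 under 1 kb away, 6.40% (5.06 to 8.06) were near a start site, of those 1 to 5 kb away 1.30% (0.872 to 1.92), and of those 5 kb or more away 0.192% (0.0339 to 1.08). The shares in gene-rich bins were 56.0%, 57.8% and 54.2%. Free sites 5 kb or more from BRG1 were in gene bodies away from the ends in 59.3% (55.0 to 63.4) of cases, against 42.0% (39.1 to 45.1) for those under 1 kb away.

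Over genes, 286 of 21887 protein-coding genes, 1.31%, had a free site within 1 kb of an end, and 187 of these, 65.4%, had a CHD4 site with BRG1 at an end too. Ends with a CHD4 site with BRG1 numbered 9399, 42.9% of genes. Gene bodies with a free site numbered 1566, 7.15% of genes, and 231 of these had no CHD4 site with BRG1 in the body. Most bodies, 1331, had 1 free site.

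The bodies with most free sites belonged to genes of several kinds. Trim24 (a bromodomain ubiquitin ligase), Lrp5 (a Wnt co-receptor), Trerf1 (a zinc finger transcription regulator), Ano6 (a phospholipid scramblase), Zfpm2 (the GATA cofactor FOG2) and Stard13 each held 5. Their CHD4 sites with BRG1 numbered 1 in Trim24, 2 in Lrp5, 8 in Trerf1, 14 in Ano6, 28 in Zfpm2 and 59 in Stard13. So in Trim24 (97.6 kb, chr6:37870811-37968445) and Lrp5 (102 kb, chr19:3584825-3686585) most reproduced CHD4 sites were free, while in Stard13 (391 kb, chr5:151037515-151428200) few were. The bodies of Trim24 and Lrp5 did not lack BRG1, with 9 and 13 WT BRG1 regions at 20 cycles.

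Trim24 and Lrp5 also differed in lamin A/C. Trim24 held 1 lamin A/C region in the WT lists, with 3A6 at 16 cycles, and in KO 5 with 3A6 at 16 cycles and 2 with 3A6 at 20 cycles. Lrp5 held 0 in each of the 8 lamin A/C lists, and 5 Lap2alpha regions at 20 cycles and 0 at 16. Trim24 held 2 Lap2alpha regions at 20 cycles and 3 at 16.

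Bodies with 4 free sites were those of Dnah10 (an axonemal dynein heavy chain), the kinesins Kif13a and Kif6, Slc39a11 (a zinc transporter), Ahnak (a very large scaffold protein) and Asap1 (an Arf GTPase-activating protein). In Dnah10, 1 CHD4 site had BRG1. Kif6 (295 kb, chr17:49615098-49909847) had the highest lamin A/C coverage of these 12 bodies in the 4 WT lists, but not in KO at 16 cycles, where Stard13 was higher (1.44% with 3A6 and 1.12% with E1). In WT its body was covered at 0.861% and 7.66% with 3A6 at 16 and 20 cycles and at 0.469% and 6.35% with E1. In KO the same 4 values were 1.09%, 1.83%, 0.706% and 3.64%. Coverage of Kif6 was thus lower in KO at 20 cycles and slightly higher at 16 with both antibodies, in single libraries.

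Among the widest free sites, those at gene ends with a known strand lay at 3′ ends. The widest, 2390 bp (chr10:79990635-79993024), was inside Cnn2, which encodes the actin-binding protein calponin 2. The next, 2060 bp (chr6:4541545-4543604), began 1 bp past the 3′ end of Col1a2, a chain of type I collagen and a main product of fibroblasts. It was in both 16-cycle CHD4 lists and in 1 of the Lap2alpha lists, with BRG1 70 bp away. A site of 1596 bp (chr2:26913552-26915147) lay inside Surf1, a cytochrome oxidase assembly gene, from 174 bp off its 3′ end inwards. It was also 239 bp past the 3′ end of Rpl7a, a ribosomal protein gene. A site of 1360 bp (chr9:69492092-69493451) lay 299 bp past the 3′ end of Anxa2, which encodes a membrane-binding annexin.

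The remaining wide sites lay within 1 kb of an end of Psmd7 (a proteasome lid subunit), in Cdk18 (a kinase) and Scn8a (a sodium channel), 11138 bp from Scd2 (a fatty acid desaturase), 10872 bp from Fzd2 (a Wnt receptor) and 99091 bp from Klf14 (a zinc finger factor). None of the 10 widest shared bases with a lamin A/C region of any library, and 5 of the 10 (Cnn2, Col1a2, Anxa2, Psmd7 and Klf14) were in 1 Lap2alpha list. Of all free sites, 80.7% met no lamin A/C list and 12.9% met a Lap2alpha list. A wider site can meet a region more easily.

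Gene groups of the fibroblast and of the remodellers themselves held between 0 and 3 genes with a free site at an end. Of 24 fibroblast matrix genes 3 had one (1.31% of all genes did): Col1a2, Lum, which encodes the proteoglycan lumican, and Pdgfra, the receptor of platelet-derived growth factor, where the site lay 876 bp upstream of the start. In the same group 21 genes had a CHD4 site with BRG1 at an end, where 42.9% of all genes did. Of 16 immediate early genes 1 had a free site at an end, Fos, across its 3′ end, and 15 had a site with BRG1. Of 25 SWI/SNF genes 1 had one, Dpf1, and the 15 NuRD genes, 10 ChAHP and HP1 genes and 14 lamina and LEM-domain genes had 0. In groups this small, 0 is near what the 1.31% over all genes gives.

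Inside bodies, free sites were in 2 of 15 NuRD genes (Gatad2b and Mbd2), 2 of 10 ChAHP and HP1 genes (Cbx5, which is HP1 alpha, and Setdb1, a histone methyltransferase), 4 of 25 SWI/SNF genes (Dpf1, Dpf2, Pbrm1 and Smarcc1) and 1 of 14 lamina and LEM-domain genes (Syne1, a nesprin). The share over all genes was 7.15%, and gene length was not adjusted for.

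Of 10 cohesin and CTCF genes, 5 had a free site in the body, where 7.15% of all genes did. Gene length was not adjusted for. They were Nipbl (the cohesin loader), Pds5b (a cohesin regulator), Smc3 (a cohesin core subunit), and Stag1 and Stag2 (alternative cohesin subunits). Wapl, which releases cohesin, had a free site 374 bp past its 3′ end (1.31% of all genes had one at an end). Each of the 5 bodies held 1 free site, beside 1 to 9 CHD4 sites with BRG1, and 2 of the 10 genes had a site with BRG1 at an end (42.9% of all genes did).

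Other groups held 0 free sites, beside shares over all genes of 1.31% at ends and 7.15% in bodies, so that 0 at ends says little of groups of this size. Genes of the cell cycle (20), histones (67), protocadherin clusters (57), bivalent developmental factors (39), keratinocytes (12), leukocytes (10) and muscle, adipocytes and melanocytes (12) had 0 free sites at ends and 0 in bodies. A CHD4 site with BRG1 was within 1 kb of an end in 85.1% of histone genes, 70.0% of cell cycle genes and 81.2% of ribosomal protein genes, against 42.9% of all genes. Of 425 zinc finger genes 7 had a free site at an end and 25 in the body, 1.65% and 5.88%, near the shares over all genes. Of 1110 olfactory receptor genes 0 had one at an end, and of 355 vomeronasal receptor genes 1 had.

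Lamin A/C was found at a small part of the free sites, and more in KO than in WT in each of the 4 matched pairs. With 3A6 at 16 cycles, 2.23% of free sites shared bases with a lamin A/C region in WT and 12.6% in KO. With 3A6 at 20 cycles the shares were 2.40% and 5.27%, with E1 at 16 cycles 0.463% and 1.48%, and with E1 at 20 cycles 0.897% and 1.53%. The KO libraries were higher within every pair, the ranges of the genotypes overlapped, and 1 pair, 3A6 at 16 cycles, held most of the gain. The mean difference, KO minus WT, was 3.73 ± 4.56 percentage points (SD, n = 4 pairs; exact two-sided sign-flip permutation p = 0.13, the smallest that 4 pairs allow, and 0.375 with Benjamini-Hochberg adjustment over 6 tests). Without that pair the mean was 1.51. It was 6.64 with 3A6 alone and 0.825 with E1 alone.

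Sites with BRG1 showed the same order. Their shares were 1.40% in WT and 13.6% in KO with 3A6 at 16 cycles, 0.871% and 5.62% with 3A6 at 20 cycles, 0.782% and 3.75% with E1 at 16 cycles, and 0.308% and 0.688% with E1 at 20 cycles. The gain there was 5.08 ± 5.09 points (n = 4 pairs). At free sites it was lower by 1.35 ± 1.07 points, lower in 3 of 4 pairs (exact two-sided sign-flip permutation p = 0.25; adjusted p = 0.375).

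As ratios, KO over WT was 5.68, 2.19, 3.19 and 1.71 at free sites, in the order above, and 9.70, 6.45, 4.80 and 2.23 at sites with BRG1. The lists themselves were longer in KO, by 2.19, 1.24, 2.46 and 1.62 times. The part of list length in the gain was not tested. When at least 50% of a site had to be covered, the difference between the gains turned, to 1.10 points higher at free sites (exact sign-flip permutation p = 0.13). That alternative favours narrow sites by its construction.

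Counted site by site, 415 free sites, 12.0%, had a 3A6 region at 16 cycles in KO and not in WT, where 13.3% of all reproduced CHD4 sites did, and 55, 1.59%, had one in WT and not in KO (1.15% of all). With 3A6 at 20 cycles the numbers were 148 (4.28%, all sites 5.33%) and 49 (1.42%, all sites 0.701%). With E1 at 16 cycles, 45 gained (1.30%, all sites 3.43%) and 10 lost (0.289%, all sites 0.587%), and at 20 cycles 32 gained (0.926%, all sites 0.632%) and 10 lost (0.289%, all sites 0.237%). The share of free sites that gained lamin A/C was thus below that of all sites in 3 pairs and above it with E1 at 20 cycles, each a single pair of libraries with no test of its own.

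**Figure D3:**
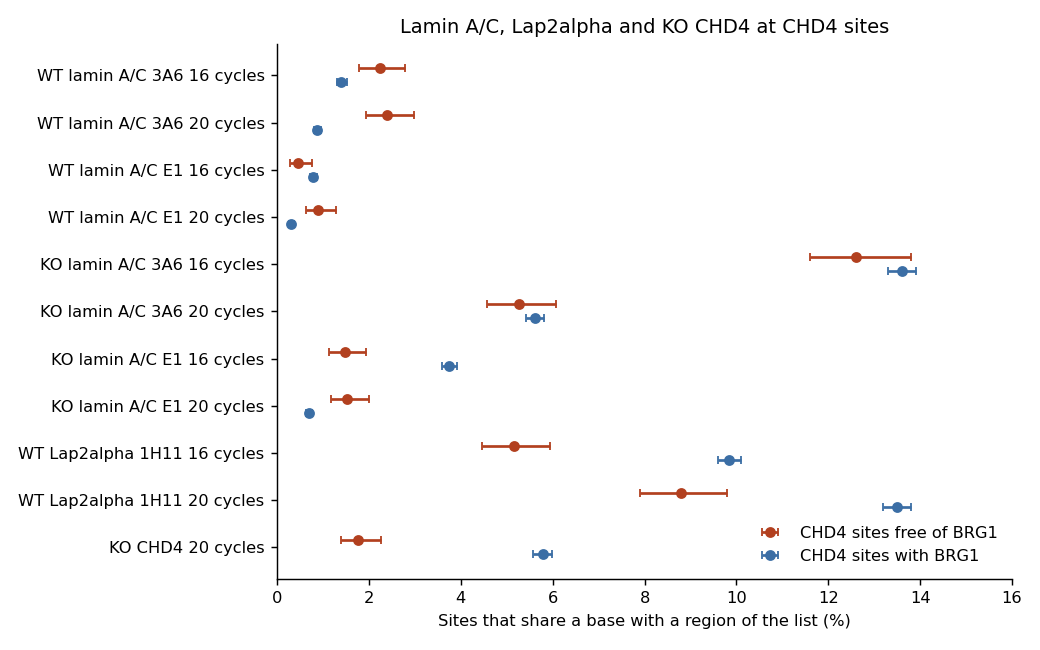
Percent of CHD4 sites free of BRG1 (red) and with BRG1 (blue) that shared at least 1 base with a region of each list; points are single libraries and bars 95% Wilson intervals. KO 3A6 at 16 cycles is highest for lamin A/C in both sets, and Lap2alpha and KO CHD4 at 20 cycles are lower at free sites.

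The lamin A/C difference between free sites and sites with BRG1 was smaller than its spread over the 8 libraries. The mean shares were 3.36% and 3.38%, the difference was -0.0167 ± 1.22 points, and free sites were higher in 4 of 8 libraries (exact two-sided sign-flip permutation p = 0.984, smallest possible 0.0078). In WT the free sites were higher in 3 of 4 libraries, by 0.656 ± 0.764 points (exact p = 0.25), and in KO lower in 3 of 4, by -0.690 ± 1.30 points (exact p = 0.375). With at least 50% of the site covered, free sites were higher in all 8 libraries, by 1.40 points on average (exact p = 0.0078). That rule favours narrow sites by its construction, and free sites had a median width of 294 bp against 596 bp. Its p-value was not adjusted and cannot tell more lamin A/C at free sites from their smaller width. With a 200-bp window at each centre, of equal width in both sets, free sites were higher by 0.423 points (exact p = 0.203).

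Relative to windows 10 kb away, lamin A/C regions met the centres of free sites more often, most clearly with 3A6. A 200-bp window at the centre of a free site met a 3A6 region in WT 6.61 times as often as windows 10 kb away at 16 cycles, and 4.88 times as often at 20 cycles. In KO the ratios were 4.78 and 3.87. For E1 they were 2.14 and 1.76 in WT and 2.29 and 1.66 in KO. The same ratios at sites with BRG1 were 6.27, 3.44, 4.67 and 4.01 for 3A6, and 5.67, 1.53, 5.21 and 0.968 for E1, so that E1 at 16 cycles was the more centred there. The wider neighbourhood was poor in lamin A/C. Within 100 kb centred on free sites, lamin A/C covered less than its share of the genome in each of the 8 lists, for instance 0.451% against 2.53% with WT 3A6 at 20 cycles and 1.38% against 1.67% with KO 3A6 at 16 cycles. Around sites with BRG1 the WT lists covered still less, 0.202% with 3A6 at 20 cycles. The share of free sites that met a region was itself below the share of the genome covered in some lists. It was 2.40% against 2.53% with WT 3A6 at 20 cycles. With E1 at 20 cycles it was 0.897% against 1.87% in WT and 1.53% against 3.09% in KO. In each of the other lists it was above, for instance 12.6% against 1.67% with KO 3A6 at 16 cycles. Sharing 1 base is a looser measure than coverage.

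**Figure D4:**
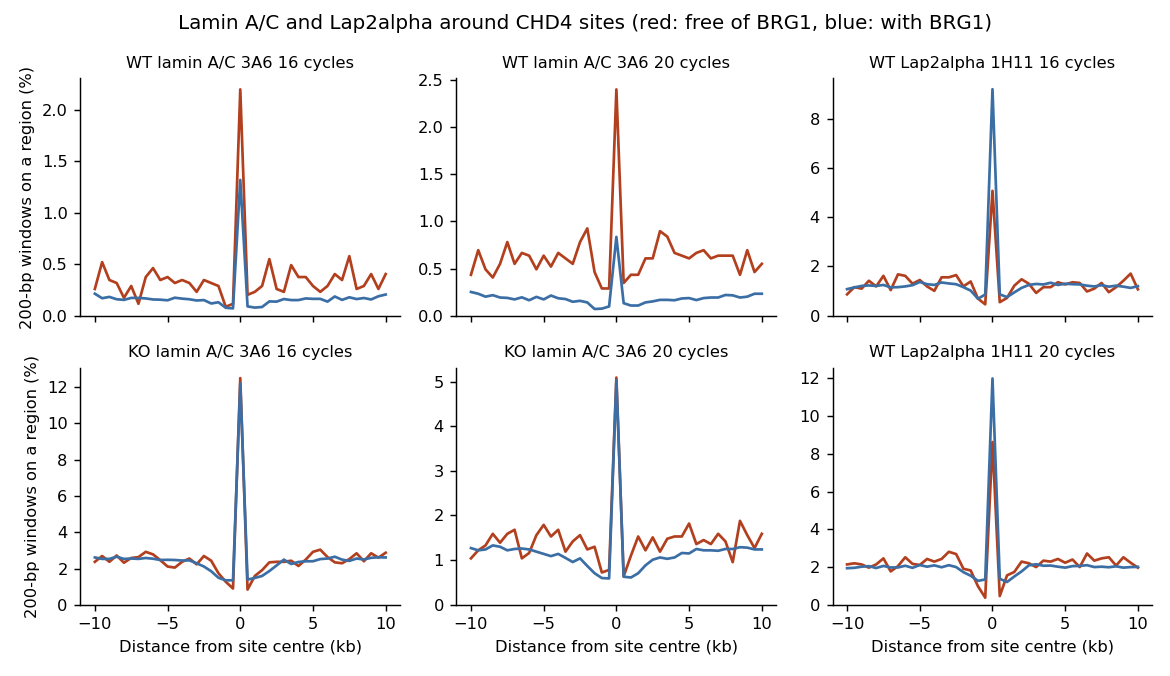
Percent of 200-bp windows that met a region, in steps of 500 bp from 10 kb before to 10 kb after the site centre, for CHD4 sites free of BRG1 (red) and with BRG1 (blue) in 4 lamin A/C (3A6) and 2 Lap2alpha libraries; each panel has its own axis from 0. At the centre KO 3A6 at 16 cycles reaches 12.5% at free sites and 12.2% at sites with BRG1, and Lap2alpha at 16 cycles 5.07% and 9.20%.

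Most free sites had no lamin A/C at all: 2788 of 3455, 80.7%, met no region of any of the 8 lists, and 516 met 1 list. Of sites with BRG1, 77.8% met none. KO lists alone marked 15.2% of free sites and 19.4% of sites with BRG1, and WT lists alone 1.68% and 1.56%. Sites in 5 or more lamin A/C lists numbered 11. Those in 7 of the 8 lists lay 87709 bp from Cntnap4 (a contactin-associated protein of neurons), 116979 bp from Adam29 (a testis member of the ADAM family) and inside Zfp978, a zinc finger gene. Others lay far from genes too, as at 473798 bp from Castor2 (an arginine sensor of mTORC1) and 203870 bp from Dynlrb2 (a dynein light chain), while one lay 14593 bp from B3glct (a glucosyltransferase) and another 15094 bp from Gbp6 (a guanylate-binding protein). Inside Fry, a cell-shape gene, a site of 626 bp was in 5 lists. Of the first 6 named, 5 were supported by the WT list alone at 16 cycles.

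Over all free sites the supporting list went with the lamin A/C share. Sites supported by the WT list alone at 16 cycles met WT 3A6 regions in 8.11% (6.05 to 10.8) of cases at 16 cycles and 7.34% (5.39 to 9.91) at 20, and those supported by the KO list alone in 0.818% (0.530 to 1.26) and 1.68% (1.24 to 2.27). In KO 3A6 at 16 cycles the shares were 14.5% (11.7 to 17.8) and 11.4% (10.2 to 12.7), closer together. Gene-poor bins held 22.2% of the sites of the WT list alone and 4.87% of those of the KO list alone, and gene density was not adjusted for here.

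Lamin A/C shares were highest at free sites 5 kb or more from BRG1 in each of the 8 lists. With WT 3A6 at 20 cycles, 0.479% (0.205 to 1.12) of sites with BRG1 under 1 kb away met a region, 2.02% (1.47 to 2.76) of those 1 to 5 kb away and 7.58% (5.61 to 10.2) of those 5 kb or more away. With KO 3A6 at 16 cycles the shares were 8.52% (6.98 to 10.4), 13.6% (12.2 to 15.3) and 17.2% (14.3 to 20.7). With KO E1 at 20 cycles they were 0.575%, 1.27% and 4.36%. WT E1 at 16 cycles, with few sites in each class, did not rise at the first step, with 0.287%, 0.266% and 1.52%. Coverage within 100 kb of the sites rose too, with WT 3A6 at 20 cycles from 0.141% to 0.362% and 1.38%. The classes thus differed in their surroundings as well as at the sites.

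**Figure D5:**
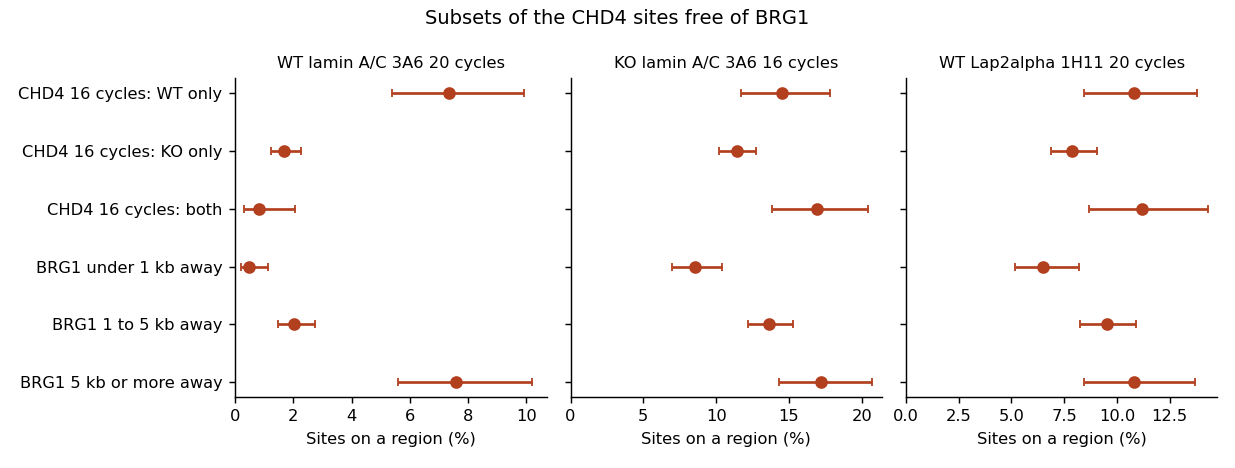
Percent of free sites that met a region of WT 3A6 at 20 cycles, KO 3A6 at 16 cycles or Lap2alpha at 20 cycles, by the 16-cycle CHD4 list that supports the site (3 upper points) and by distance to the nearest BRG1 region (3 lower points); bars are 95% Wilson intervals. Among the 3 lower points of each panel the share is lowest where BRG1 is under 1 kb away and highest at 5 kb or more.

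Lap2alpha was found at a smaller share of free sites, all supporting lists together, than of sites with BRG1. In WT at 16 cycles it was at 178 free sites, 5.15% (4.46 to 5.94), against 9.84% (9.59 to 10.1), and at 20 cycles at 304, 8.80% (7.90 to 9.79), against 13.5% (13.2 to 13.8). The differences, -4.69 and -4.68 points, were alike in the 2 libraries, which allow no test. At sites of like width the mean difference was -1.59 points, and with at least 50% of the site covered, which favours narrow sites, it turned to 1.27. The regions sat on the sites: the centre met Lap2alpha at 16 cycles 5.22 times as often as windows 10 kb away, against 8.06 times at sites with BRG1.

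Lap2alpha in one library seldom recurred in the other. Of 447 free sites with Lap2alpha in either library, 35 had it in both, and of 11021 such sites with BRG1, 1079 had. Any WT lamin A/C list marked 46 of the 447, 10.3% (7.80 to 13.5), against 95 of the 3008 sites without Lap2alpha, 3.16% (2.59 to 3.85). For KO lamin A/C lists the shares were 24.8% (21.1 to 29.0) and 16.6% (15.3 to 17.9). Sites with BRG1 showed the same order, with 6.14% and 1.92% for WT lists and 23.8% and 19.8% for KO lists. Neither lamin A/C nor Lap2alpha marked 2470 free sites, 71.5%, and 62.4% of sites with BRG1.

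The 10 widest of the 35 were in or near genes of varied function, and none lay on a promoter window. Those inside gene bodies were in Thbs1 (the matrix protein thrombospondin 1), Ddx42 (an RNA helicase), Rbm39 (a splicing factor), Cnih1 (a cargo receptor of the secretory pathway), Ube2e1 (a ubiquitin-conjugating enzyme), Fos (a subunit of AP-1), Ifrd1 (a transcription coregulator) and Nfatc3 (a calcium-responsive transcription factor). The others were 3199 bp from Slc3a2 (the shared chain of amino acid transporters) and 19112 bp from Fbxo11 (a ubiquitin ligase subunit). At Fos the site, 536 bp (chr12:85476760-85477295), lay across the 3′ end, with BRG1 281 bp away. Rbm39, Ube2e1 and Ifrd1 sites met 1 lamin A/C list each and the other 7 met none. Of all free sites, 80.7% met none.

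The KO CHD4 list at 20 cycles was not used by the rule and is short, with 7283 regions. It held 61 free sites, 1.77% (1.38 to 2.26), and 5.78% (5.58 to 5.99) of sites with BRG1. At like widths the difference was -0.212 points, with a 95% interval of -0.776 to 0.539. Sites in both 16-cycle lists were in it more often, 3.66% (2.33 to 5.71), than those of the WT list alone, 0.579% (0.197 to 1.69). At gene ends 2 of the 61 remained: a site of 642 bp inside Wdr70, a WD-repeat gene (chr15:8097686-8098327), 882 bp from its start, and one of 198 bp, 377 bp from Klf16, a zinc finger factor (chr10:80566546-80566743). Neither met lamin A/C or Lap2alpha, which was so at 71.5% of all free sites.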

How the data were processed

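ChIP-seq of WT and Lap2alpha KO mouse dermal fibroblasts gave 18 region lists used here. The authors deposited each as chromosome, start and end in base pairs on GRCm38, with no height, fold or significance. The submitters' processing notes name MACS2 2.1.4, HOMER 4.11.1, bedtools, deepTools and SAMtools. What each did, the threshold and control for calling regions and whether libraries were pooled: not given in the sources used here. Depth is unknown.

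Intervals of width 0 (1 to 1201 per list) and those off the assembled nuclear chromosomes were dropped, and overlapping intervals, present in 7 lists, were merged. Overlap meant at least 1 bp. Genes were 21887 protein-coding genes of the RefSeq table for GRCm38; strand, start sites and sequences came from the RefSeq promoter table (17492 genes). Gene ends were 1 kb to each side of both ends, and genes were counted in 2732 bins of 1 Mb. Shares have 95% Wilson intervals, which cover counting error and not variation between cultures. Libraries were compared by exact two-sided sign-flip permutation tests on paired differences, with Benjamini-Hochberg adjustment over 6 tests. Samples of a genotype differ in antibody or sonication, and nothing says that they came from separate cultures, so p-values measure the spread between these libraries. Overlap, coverage and distance functions were checked on simulated regions. Python 3.11.15, pandas 2.3.3 and NumPy 2.4.6 were used. GC content and motifs of the sites themselves were planned and not run, since no genome sequence was used; promoter windows took their place.

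The sites, the gene lists and the comparisons were chosen with earlier results of these data known. Named genes were the 10 bodies with most free sites (12 with ties), the 10 widest sites, and up to 10 sites each at gene ends and in the KO CHD4 list at 20 cycles, with Lap2alpha in both libraries or in most lamin A/C lists, and list members with a free site. Predicted genes were not named, and receptor families were counted. Promoter windows, 3′ ends, subsets by 16-cycle list and by distance to BRG1, like widths and the omission of single libraries were added after seeing the data.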

Additional observations from a re-analysis of the deposited data

How the results depend on the processing

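The number of free sites, 3455, became 492 when both 16-cycle CHD4 lists were required. It became 1010 when the WT 16-cycle list was required, whether or not the site was in the KO list. It was 1684 at widths of at least 300 bp, and between 3646 and 5212 with 1 BRG1 list left out (highest without WT BRG1 at 20 cycles). The lamin A/C difference from sites with BRG1, -0.0167 points, changed sign with no BRG1 within 1 kb (0.683), centre windows (0.423), at least 50% of the site covered (1.40), 3A6 alone (0.257), 20 cycles alone (0.655), like widths (0.378) and the WT 16-cycle list (0.737), and ran from -0.238 to 0.306 with 1 library left out. The KO minus WT gain at free sites stayed positive in every alternative run, from 0.825 (E1 alone) and 1.75 (20 cycles alone) to 5.72 (16 cycles alone) and 6.64 (3A6 alone), and ran from 1.51 to 4.77 with 1 pair left out. Its difference from sites with BRG1 ran from -1.88 to -1.14 with 1 pair left out and turned to 1.10 with at least 50% of the site covered. The Lap2alpha difference, -4.68 points, was -1.59 at like widths and 1.27 with at least 50% covered. For KO CHD4 at 20 cycles, -4.02 points became -4.56 (both 16-cycle lists, and again at 300 bp or more), -2.18 (centre windows), 0.0726 (at least 50% covered), -0.212 (like widths), -5.57 (against sites in all 4 BRG1 lists) and -5.11 (WT 16-cycle list). The gene-end difference, -11.7 points, stayed negative: -8.07 (both lists), -13.6 (no BRG1 within 1 kb), -10.7 (centre windows), -2.77 (5-kb gene ends), -5.66 (like widths), -7.61 (WT 16-cycle list) and -13.4 (start sites). The gene-rich difference, 12.3 points, stayed positive: 19.2 (both lists), 14.7 (300 bp or more), 18.5 (all 4 BRG1 lists), 8.40 (WT 16-cycle list) and 15.4 (KO 16-cycle list). The causes were not tested, except that requiring 50% coverage disfavours wide ones by construction. No paired analysis by replicate number was possible because each group holds 1 library; pairs were matched by antibody and sonication. Depth is unknown, so a site free of BRG1 is one without a listed region, not one shown to lack the protein.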
